A study of Homo sapiens with 16 samples.

Results

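The promoters of the cytosolic ribosomal protein genes were followed in HEK293, a human embryonic kidney cell line, after a hyperosmotic shock. Members were taken by gene symbol from GENCODE release 44: protein-coding genes named RPL or RPS with a number and at most a final A, X or L, together with RPLP0, RPLP1, RPLP2, RPSA and FAU. This gave 82 genes, 49 of the large subunit and 33 of the small subunit, with FAU counted in the small subunit. Of the 74404 peak intervals shared by all libraries, 112 lay within 1000 bp of a transcription start of such a gene, as against 20481 within that distance of any protein-coding gene. They belonged to 81 genes. RPL3L, a muscle form of RPL3, had no interval. There was 1 interval for 58 genes and several, at most 4, for the other 23. The interval nearest to the start of the canonical transcript is called the main interval of a gene, and it contained that start for 80 of 81 genes. The exception was RPL10L, a testis-expressed retrogene, whose interval lay 54 bp away. Main and other intervals of a gene, and a promoter shared with a neighbour, are not independent: 32 of the 112 intervals also lay near a start of another protein-coding gene.

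The cells carried an eGFP-YAP genotype in every group. They had vehicle or sorbitol at 200 mM for 1 h, and the series design states that cells were starved of serum before the exposure. CUT&Tag, in which an antibody directs the Tn5 transposase to cut and tag the DNA around its target, was done for CTCF, for the cohesin subunit RAD21, for acetylation of histone H3 at lysine 27 (H3K27ac) and, with an antibody against GFP, for eGFP-YAP, here called YAP1 as in the labels. There were 16 libraries, 2 for each combination of target and treatment. Nothing in the labels says whether the replicates were separate cultures, so a p-value measures the spread between these libraries, which may be technical. The columns of the vehicle libraries are named for the start and those of the sorbitol libraries for the end of the exposure, although the protocol has control cells collected in parallel. If the names hold, treatment cannot be told apart from time. A control with an unspecific antibody was not analysed here. A bulk profile also averages over cells, so fewer cells with a bound promoter and less binding per cell cannot be told apart.

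In units of 1000000 counts, library totals ranged from 2.84 to 4.51 for CTCF, from 1.19 to 2.3 for RAD21, from 2.34 to 3.82 for YAP1 and from 6.54 to 8.84 for H3K27ac. The median count of a main interval was 35 to 51 in CTCF libraries, 12 to 27 for RAD21, 17 to 85 for YAP1 and 545 to 712 for H3K27ac, so counts were largest for H3K27ac and smallest for RAD21. Mitochondrial intervals took a larger share of counts with sorbitol than with vehicle for CTCF, RAD21 and YAP1, reaching 57.8% in a YAP1 library. None of the 112 intervals is among the 388 that dominate the libraries, mitochondrial ones included. Fitted without those, CTCF gave 51 members higher and 2 lower with a median of 0.82, RAD21 1 higher, YAP1 3 higher and 0 lower, and H3K27ac 15 higher and 39 lower. Of all intervals tested in these fits, 19.6% were higher and 21.3% lower for CTCF, and 2.65% higher for RAD21. YAP1 had 4.25% higher and 1.57% lower, and H3K27ac 8.59% and 14.4%. All 7 marker genes listed for HEK293 had an interval at a start, and 3 of them, LIN28B and NEFL included, stood above the median H3K27ac level of promoters, while PAX8 had 1.68 CPM per kb. Of 7 markers listed for HCT116, the colon line also used in the study, CDX2, LGR5 and EPCAM had an interval. CDX2 (53.8 CPM per kb, percentile 82.0) and LGR5 (percentile 72.3) stood above the promoter median, and above LIN28B (percentile 55.0) and NEFL (percentile 50.8). Of 4 blood and 2 liver markers, 2 of the blood markers had an interval, SPI1 included, and 0 stood above the promoter median.

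Ribosomal protein genes are transcribed at very high rates in growing cells, and their mRNAs typically begin with a cytosine followed by a run of pyrimidines, the 5′ terminal oligopyrimidine tract through which mTOR signalling controls their translation. Their promoters are compact, usually lack a TATA box and often hold sites for ETS factors, SP1 and YY1. CTCF is a zinc finger protein that binds a long consensus and halts cohesin, the ring complex that extrudes chromatin loops. H3K27ac marks active promoters and enhancers, and YAP1 is the co-activator of the Hippo pathway that reaches DNA through TEAD factors. Many ribosomal protein genes also carry small nucleolar RNA genes in their introns, here 60 of them in 28 genes.

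The start sites show what these promoters share. A RefSeq promoter window (GRCh38.p14) at the same start as the GENCODE canonical transcript was found for 63 genes. Each line below gives 30 bases, from 20 before to 10 from the start site on, read 5′ to 3′ on the gene's strand, with the pyrimidine run over the start in capitals. The first 5 belong to genes with some of the largest changes described below, RPL38 had the largest gain of H3K27ac, and RPS26 is shown because it lost CTCF and has no such run.
FAU: tgacgcgccctcgCTTCTTCCTCTTTCTCg
RPLP1: gctgcgtataggcgcgagagCCCCTTTCCT
RPL28: tcgcctcgcccctcgCCTTCCTCTTTCCgt
RPL41: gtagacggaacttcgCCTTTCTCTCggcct
RPL13A: ccctgcgacaaaaCCTCCTCCTTTTCCaag
RPL38: ccggaaacggaagtctcgTTCTTTTTCgtc
RPS26: gctgggagacacataacctcgattttcttc
These windows are chr11:65122125-65122154 (minus strand) for FAU and, on the plus strand, chr15:69452798-69452827 for RPLP1, chr19:55385912-55385941 for RPL28, chr12:56116613-56116642 for RPL41, chr19:49487588-49487617 for RPL13A, chr17:74203658-74203687 for RPL38 and chr12:56041898-56041927 for RPS26. A C at the start with pyrimidines at the next 4 bases was present in 47 of the 63 windows (74.6%), as against 4.6% of 15731 windows of all genes. Searched on both strands of the 300-base windows, the ETS core CCGGAAG was found in 34.9% of member windows and 14.3% of all, and the YY1 core ATGGCGG in 20.6% and 7.9%. The GC box GGGCGG (60.3% and 59.8%), TATAAA (9.5% and 9.9%), the E-box CACGTG (4.8% and 8.6%) and the NRF1 core (1.6% and 1.7%) were found at similar or lower shares than in all windows. For CTCF, described below, 27 of 46 tested main intervals with the pyrimidine start rose with sorbitol (median log2 fold change 0.945), and 8 of 14 without it (median 0.806), next to 30.5% of all tested promoter intervals. For H3K27ac, 18 of 47 with it fell and 6 rose, and of 15 without it 2 fell and 4 rose, next to 28.1% lower and 10.7% higher among promoter intervals. The 2 kinds of start were not compared by a test.

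Only a few of these promoters hold the CTCF consensus. With at most 1 mismatch, it was found in 10 of the 112 intervals, 9 of them main intervals, which is 8.9% as against 12.2% of all protein-coding promoter intervals. The lines below give the site with 8 bases on either side (hg38, on the strand of the site), the 14 bases of the consensus match in capitals, for 4 of the 5 main intervals with the most CTCF in vehicle cells and for RPS2, which gained the most CTCF.
RPL26: cctcctagCCACTAGGTGACACtagccata
RPS29: aatttattCCAGTAGGTGTCACtggtgagt
RPL38: gacttcgaCCACAAGGGGGCAGggctgctg
RPL39L: cgccaatgCCTCCAGGGGGCGCtctccctc
RPS2: cgcttttcCCAGCAAATGGCGGatgacgcc
Each of these 5 has 1 mismatch. They are, on the minus strand, chr17:8383308-8383337 for RPL26, chr14:49587005-49587034 for RPS29 and chr16:1964611-1964640 for RPS2, and on the plus strand chr17:74203544-74203573 for RPL38 and chr3:187139825-187139854 for RPL39L. The sites at RPL26, RPS29, RPL38 and RPL39L lie at -129, -639, -120 and -343 bp from the canonical start, and that of RPS2 lies at 201 bp, inside the gene. A match is a description of the letters and not evidence of a bound site. The 9 main intervals with the consensus had a median of 34.7 CPM per kb of CTCF in vehicle cells (range 7.83 to 82.0), and the 72 without it 6.22 (range 1.23 to 32.9), where CPM are counts per 1000000 on scaled library sizes. The highest level without the consensus, 32.9 CPM per kb, was that of RPS26.

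The levels in vehicle cells placed these promoters among the most acetylated. Ranked among all 20481 protein-coding promoter intervals by CPM per kb, the 81 main intervals had a median percentile of 90.7 for H3K27ac, 75.9 for YAP1, 56.1 for CTCF and 53.7 for RAD21. For H3K27ac, 43 of 81 stood in the top 10% of promoters and only RPL10L and RPS20 below the median. The median H3K27ac level was 66.5 CPM per kb. RPL37A at 116, RPS15A at 112 and RPL27A at 108 CPM per kb were highest, while RPL34 at 30.4, RPS20 at 26.2 and RPL10L at 1.06 were lowest. The highest CTCF levels were 82.0 CPM per kb at RPL26, 75.2 at RPS29 and 42.8 at RPL38, and the lowest 2.19 at RPL34, 2.08 at RPL23 and 1.23 at RPL17. RPS29 was among the 3 highest for both RAD21 (21.7 CPM per kb) and YAP1 (31.6), with RPS26 for RAD21 and RPL18 (29.7) for YAP1 next in order. RAD21 was lowest at RPS7 (3.04), RPL12 (2.67) and RPL10L (0.794), and YAP1 at RPL17 (3.4), RPL30 (3.29) and RPL10L (1.99). With sorbitol the median percentile moved to 75.1 for CTCF and 67.1 for RAD21, and was 72 for YAP1 and 89.9 for H3K27ac. A rank inside a group does not depend on how vehicle libraries are scaled against sorbitol libraries. It does depend on how the 2 libraries averaged in that group are scaled to each other.

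**Figure D1:**
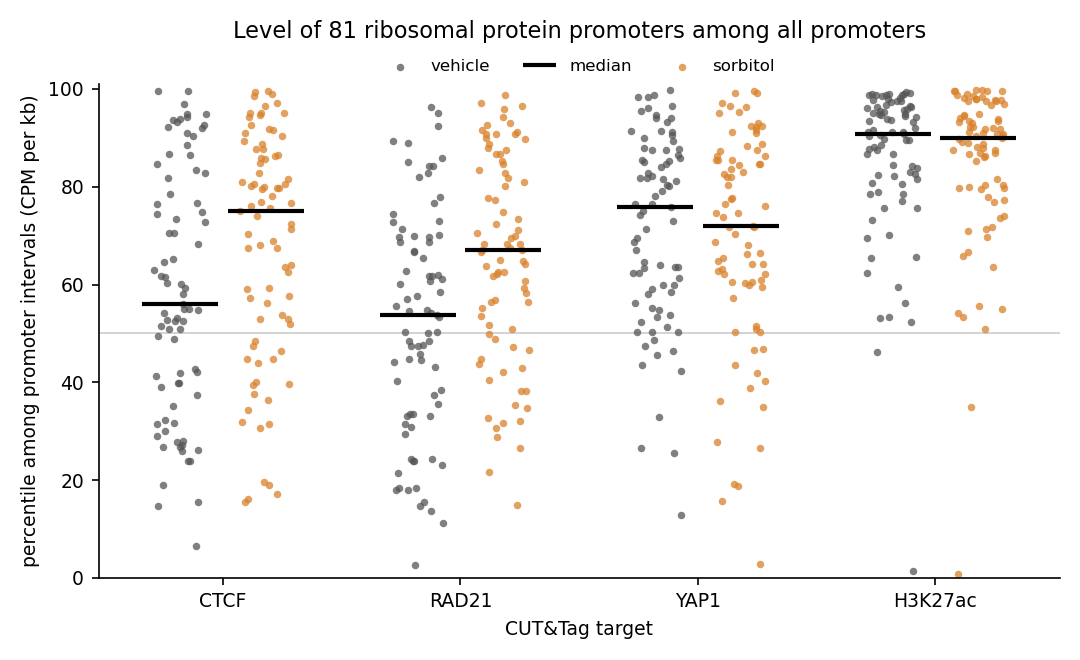
Each point is the main interval of 1 of 81 ribosomal protein genes, placed on the y axis by its percentile among all protein-coding promoter intervals in CPM per kb (mean of 2 libraries), with vehicle in grey and sorbitol in orange and black bars for the medians. The CTCF median moves from 56.1 to 75.1 and the RAD21 median from 53.7 to 67.1, while H3K27ac stays near 90 (90.7 and 89.9).

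CTCF signal rose at most ribosomal protein promoters relative to other intervals of the same libraries. Of 92 member intervals with enough counts to be tested, 51 rose (55.4%) and 2 fell (2.17%) at an adjusted p under 0.05, where 19.5% of all 39261 tested intervals were called higher and 20.7% lower (40.2% in either direction), and 30.5% and 8.76% of tested protein-coding promoter intervals. The 20 members that were not tested had too few counts, so the tested members are those with more signal in at least 1 group. The median log2 fold change of the tested members was 0.82, as against 0.48 for promoters and -0.06 for all tested intervals. With GC-corrected offsets the medians were 0.70 for the members and -0.013 for promoters. There 45 members were higher and 6 lower, next to 13.9% and 17.3% of all tested intervals. By gene, 47 of 78 tested main intervals rose, 2 fell and 29 were not called. Both sorbitol libraries lay above both vehicle libraries at 62 of the 78 main intervals (79.5%), as against 33.6% of all tested intervals and 51.7% of promoters. These directions are relative: scaling to the total count moved the median of all tested intervals to -1.04 and that of the members to -0.15. It gave 8 members higher and 19 lower, where 5.37% of all tested intervals were called higher and 53.6% lower. The members stayed 0.89 above all tested intervals in both scalings. Of large subunit main intervals 29 of 45 were higher and 0 lower (median 0.93), and of small subunit ones 18 of 33 higher and 2 lower (median 0.95). The 2 subunits were not compared by a test.

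RPS2, a protein at the mRNA entry of the small subunit, gained the most CTCF. Its main interval, chr16:1964211-1965260 (hg38), had 6.52 and 9.93 CPM in the vehicle libraries and 53.3 and 75.1 CPM in the sorbitol libraries, or 3.00 ± 0.24 (log2 fold change ± SE) with an adjusted p of 1.29e-09. Its other interval, at chr16:1962331-1963031, changed by 3.03 ± 0.34. FAU, which encodes a ubiquitin-like protein fused to a small subunit protein, had 15.1 and 15.4 CPM with vehicle and 77.6 and 77.5 CPM with sorbitol in chr11:65121410-65122787, or 2.35 ± 0.18 (log2 fold change ± SE) with an adjusted p of 4.64e-10. This interval also covers the divergent start of MRPL49. RPLP1, an acidic protein of the stalk that recruits elongation factors, had 12.1 and 11.8 CPM with vehicle and 54.3 and 58.4 CPM with sorbitol in chr15:69451933-69453505 (2.23 ± 0.20, adjusted p = 1.44e-08). RPL28, a large subunit protein, had 9.62 and 11.1 CPM with vehicle and 40.4 and 52.0 CPM with sorbitol in chr19:55384794-55386490 (2.17 ± 0.23, adjusted p = 1.92e-07). The sorbitol values of these 4 genes lay at least several times above every vehicle value, and they stayed called under total-count scaling, with log2 fold changes of 2.02, 1.37, 1.25 and 1.18.

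RPS20 and RPS26 were the only members called lower for CTCF. RPS20, on chromosome 8 at 56074156 to 56074892, had 14.7 and 17.03 CPM with vehicle and 3.62 and 4.42 CPM with sorbitol, or -1.96 ± 0.39 (log2 fold change ± SE) with an adjusted p of 4.75e-04. RPS26, a protein near the mRNA exit that is mutated in some families with Diamond-Blackfan anaemia, had 48.4 and 53.9 CPM with vehicle and 21.2 and 23.1 CPM with sorbitol in chr12:56041160-56042716, or -1.202 ± 0.195 (log2 fold change ± SE) with an adjusted p of 5.36e-05. The groups did not overlap at either gene, which the rule for naming the largest falls requires. Both sorbitol libraries lay below both vehicle libraries at 38.8% of all tested intervals. At the promoters with the most CTCF, RPL26 had 124 and 118 CPM with vehicle and 182 and 210 with sorbitol, and RPS29 had 85.0 and 89.2 and then 129 and 118. Their log2 fold changes of 0.69 and 0.50 passed the test (adjusted p = 1.85e-04 and 0.00372) and are below the median of the called members, 1.24. Across the 78 main intervals the response had a Pearson correlation of -0.33 with the log2 vehicle level per base, both taken from the same vehicle libraries, and of 0.13 with GC content. These are descriptions over genes that share libraries. The 9 main intervals with the CTCF consensus had a median of 0.54, with 6 higher and 0 lower, and the 69 tested ones without it a median of 0.95, with 41 higher and 2 lower. The 22 main intervals shared with another protein-coding gene had a median of 1.27, with 17 higher. The other 56 had a median of 0.79, with 30 higher. Of all tested intervals 19.5% were higher and 20.7% lower, and of tested promoter intervals 30.5% and 8.76%. Neither split was compared by a test, and the share among shared promoters of other genes was not computed.

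**Figure D2:**
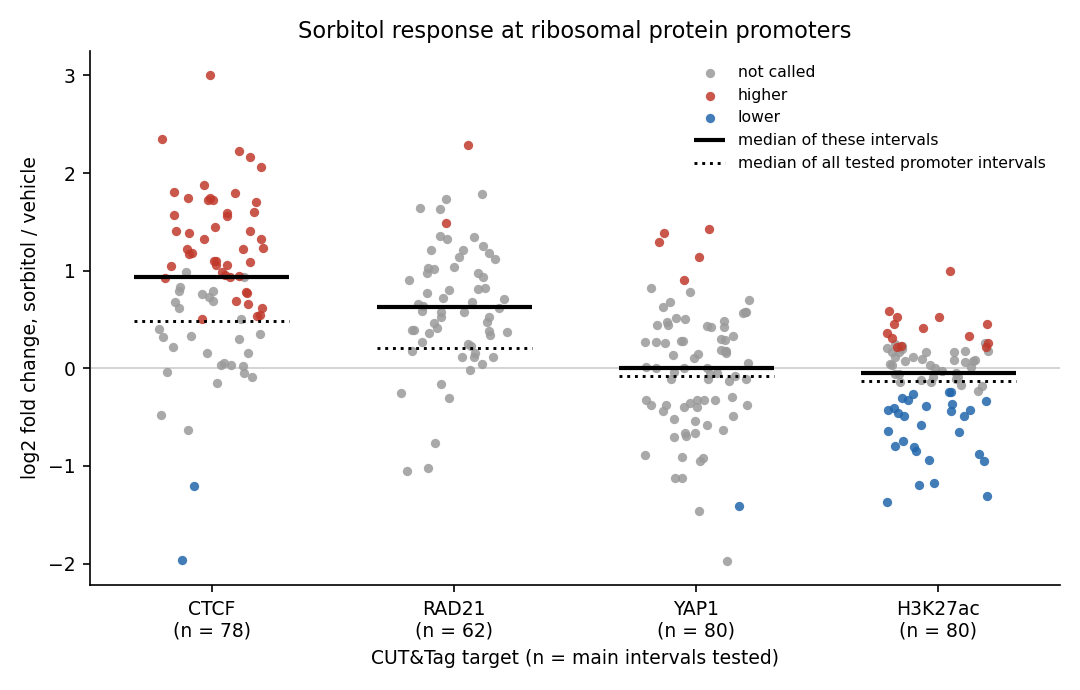
Each point is the main interval of a ribosomal protein gene, with its log2 fold change of sorbitol over vehicle (TMM scaling, 2 libraries a group) on the y axis for the 4 targets on the x axis. Red and blue points passed the adjusted threshold, solid bars are the medians of these intervals (0.94, 0.63, 0.01 and -0.05) and dotted bars those of all tested promoter intervals. Under total-count scaling the solid bars would stand at -0.05, 0.04, -1.42 and 0.09, so heights are relative to other intervals of each target.

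Few members were called for RAD21. Of 72 tested members 2 rose (2.78%) and 0 fell, where 3.34% of all 17011 tested intervals were called higher and 1.45% lower. In the same edgeR fit, 20 were higher and 1 lower at an unadjusted p under 0.05. The share of all tested intervals past that unadjusted threshold was not computed, so these counts cannot be set against the 3.34% and 1.45%. DESeq2 called 1 higher and 0 lower but gave no adjusted p for 58 of the 72. The median log2 fold change of the tested members was 0.58, as against 0.21 for promoters and -0.01 for all tested intervals, and under total-count scaling -0.02 against -0.60 for all. Both sorbitol libraries lay above both vehicle libraries at 38 of 62 tested main intervals (61.3%), as against 25.7% of all tested intervals. RPS2 had 12.4 and 7.09 CPM of RAD21 with vehicle and 48.3 and 53.4 CPM with sorbitol, or 2.29 ± 0.38 (log2 fold change ± SE) with an adjusted p of 0.00449. RPLP1 had 13.5 and 22.1 CPM with vehicle and 36.5 and 60.2 CPM with sorbitol, 1.49 ± 0.39 (adjusted p = 0.0465). The RPLP1 call was lost with DESeq2 (adjusted p = 0.056), under total-count scaling, and without vehicle replicate 1 (1.12) or sorbitol replicate 2 (1.201). RPLP0, the scaffold of the same stalk, had 10.2 and 4.43 CPM with vehicle and 22.7 and 27.3 CPM with sorbitol, and its log2 fold change of 1.64 ± 0.49 did not pass (adjusted p = 0.0759). The 19 main intervals without a RAD21 test include RPL11, RPSA, RPS6, RPS20, RPS4X and RPL39L.

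The difference between the RAD21 and CTCF responses was tested over their 8 libraries. Of 93 members, 0 had a RAD21 response above that of CTCF and 1 below it, where 0.127% and 0.704% of all 42641 tested intervals were called. That interval was RPL28, at -1.67 ± 0.40 (adjusted p = 0.0327). RPL28 had 29.2 and 27.5 CPM of RAD21 with vehicle and 40.4 and 34.1 with sorbitol, next to the rise of CTCF given above. The call was lost when either CTCF vehicle replicate, either CTCF sorbitol replicate or RAD21 sorbitol replicate 2 was left out. DESeq2 called 0, with no adjusted p for 76 of the 93 members. The median difference was -0.45 over the members and -0.24 over all tested intervals.

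For YAP1 the members kept close to the rest of the table. Of 94 tested members 5 rose (5.32%) and 1 fell (1.06%), where 5.34% of all 22765 tested intervals were called higher and 1.49% lower (6.83% in either direction), so the members' shares are near the background. The median log2 fold change was 0.01, as against -0.08 for promoters and -0.04 for all tested intervals. Total-count scaling moved the median of all tested intervals to -1.46 and that of the members to -1.41, with 0 higher and 71 lower. Under that scaling 1.48% of all tested intervals were called higher and 63.5% lower. Large subunit main intervals had a median of 0.18 (47 tested) and small subunit ones -0.36 (33 tested).

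The 5 promoters called higher for YAP1 were those of RPS2, RPL19, FAU, RPL12 and RPLP1, and all 5 had also gained CTCF. RPS2 had 21.6 and 19.2 CPM with vehicle and 59.0 and 49.9 CPM with sorbitol, or 1.43 ± 0.21 (log2 fold change ± SE) with an adjusted p of 1.26e-04, which fell to 0.00 under total-count scaling. RPL19 had 7.46 and 6.91 CPM and then 19.1 and 18.6 CPM (1.39 ± 0.34, adjusted p = 0.0151). FAU had 12.0 and 17.4 CPM and then 35.1 and 36.4 CPM (1.29 ± 0.26, adjusted p = 0.003). The values of these 3 genes do not overlap between groups, which the rule for naming the largest rises requires. Both sorbitol libraries lay above both vehicle libraries at 23.7% of all tested intervals. RPL12, a protein at the base of the stalk, had 7.46 and 10.5 CPM and then 17.9 and 22.002 CPM (1.15 ± 0.33, adjusted p = 0.0438). RPLP1 had 20.3 and 19.2 CPM and then 45.9 and 26.2 CPM (0.91 ± 0.26, adjusted p = 0.0369), and without sorbitol replicate 1 its log2 fold change was 0.32. With 1 library left out in turn, the median log2 fold change of the members ran from -0.126 to 0.038, and that of all tested intervals from -0.174 to -0.049. RPS2 stayed called in each of these 4 fits, FAU was lost without vehicle replicate 1 (1.05), and RPL19, RPL12 and RPLP1 were each lost in 3 of them. All 5 rises were lost under total-count scaling, where FAU, RPL12, RPL19 and RPLP1 changed sign.

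H3K27ac changed in both directions at these promoters. Of 111 tested members 15 rose (13.5%) and 39 fell (35.1%), where 8.59% of all 56601 tested intervals were called higher and 14.5% lower, and 10.7% and 28.1% of promoter intervals. The median log2 fold change was -0.12, next to -0.13 for promoters and 0.02 for all tested intervals. By gene, 14 main intervals rose, 29 fell and 37 were not called. Total-count scaling gave 33 members higher and 31 lower with a median of 0.02, next to 14.3% and 10.4% of all tested intervals. Scaling to the weakest 25% of tested intervals gave 4 higher and 61 lower with a median of -0.38, next to 3.42% and 25.3%. Which side is larger thus depended on the scaling. The called falls of main intervals ran from -1.37 to -0.24, with a median of -0.49, and the called rises from 0.22 to 0.99, with a median of 0.38. For CTCF the called rises ran from 0.505 to 3.004, with a median of 1.236. A main interval had a median of 545 to 712 counts for H3K27ac and 35 to 51 for CTCF. Smaller changes could thus be called for H3K27ac, and sizes of called changes do not compare the targets.

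RPL41 and RPL28 were among the 4 main intervals with the largest losses of H3K27ac. RPL41, which encodes the shortest ribosomal protein, had 94.8 and 97.4 CPM and then 40.8 and 36.4 CPM in chr12:56115909-56117042 (-1.31 ± 0.09, adjusted p = 6.51e-14). RPL28 had 106 and 97.1 CPM and then 44.1 and 45.1 CPM (-1.19 ± 0.09, adjusted p = 2.65e-13). In both genes the sorbitol values are close to each other and far below the vehicle values. Both falls were called under total-count scaling too, at -1.17 and -1.05.

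The largest gains were at RPL38, RPL17, RPL34 and RPL5. RPL38, known for a role in the translation of a subset of developmental mRNAs, had 47.7 and 38.3 CPM with vehicle and 82.8 and 88.6 CPM with sorbitol in chr17:74203050-74204356, or 0.99 ± 0.10 (log2 fold change ± SE) with an adjusted p of 4.43e-10. RPL17 had 44.6 and 45.3 CPM and then 65.4 and 69.5 CPM (0.58 ± 0.10, adjusted p = 1.32e-05). RPL5, which with RPL11 and the 5S ribosomal RNA can bind and inhibit MDM2, had 122 and 124 CPM and then 169 and 185 CPM in chr1:92831477-92832943 (0.52 ± 0.07, adjusted p = 2.13e-07). RPL34 had 19.02 and 26.6 CPM and then 35.6 and 29.9 CPM (0.53 ± 0.15, adjusted p = 0.00857). Naming these 4 genes as the largest gains required groups that do not overlap. Both sorbitol libraries lay above both vehicle libraries at 31.5% of all tested intervals. The groups are closest at RPL34, whose call was lost without vehicle replicate 1 (0.295) and sorbitol replicate 1 (0.40), with scaling to the weakest 25% (0.27) and with GC-corrected offsets (0.37).

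**Figure D3:**
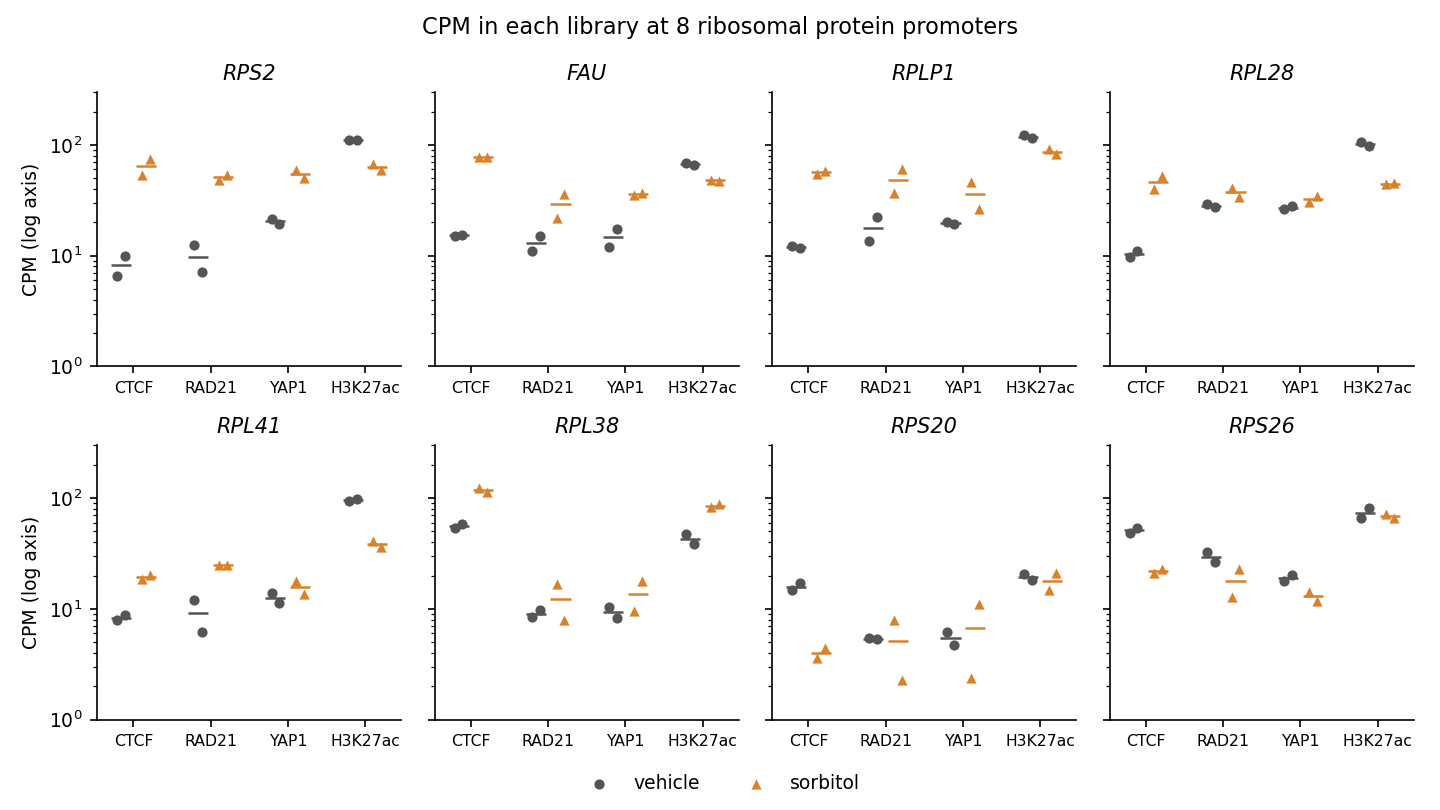
CPM in each of the 16 libraries (y axis, log scale) at the main intervals of 8 ribosomal protein genes, with the 4 targets on the x axis, vehicle as grey circles, sorbitol as orange triangles and a bar for the mean of 2 libraries. RPS2, FAU, RPLP1 and RPL28 show CTCF rising and H3K27ac falling, RPL38 shows both rising, RPS20 and RPS26 show CTCF falling, and RPL41 shows one of the largest falls of H3K27ac.

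CTCF and H3K27ac were next compared at the same promoter. Of the 47 genes with a CTCF rise, 22 had a called fall of H3K27ac (46.8%), 8 a called rise and 17 neither. Among all 4400 promoter intervals with a CTCF rise and a test for H3K27ac, 49.4% had a called fall and 7.43% a called rise, so the share of falls at the members is near that of promoters. Of the 29 genes that were tested for CTCF and not called, 7 had a fall of H3K27ac (24.1%) and 4 a rise (13.8%). These shares are near the 26.8% and 14.5% of promoter intervals not called for CTCF. The separate vehicle libraries of the 2 targets share no control. Over the 78 main intervals tested for both, the responses had a Pearson correlation of -0.19, and the CTCF and RAD21 responses had one of 0.55 over 62, given as descriptions across genes. The interaction test over 8 libraries put the H3K27ac response below that of CTCF at 43 of 112 members and above it at 4, where 9.3% of all 66550 tested intervals were called below and 12.3% above. Only 92 of these 112 members had enough CTCF counts to be tested for CTCF alone. The median difference was -0.70 over the members, -0.25 over promoters and 0.27 over all tested intervals. With GC-corrected offsets it was -0.43 over the members and 0.37 over promoters, so the sign for promoters turned. Total-count scaling gave 19 below and 25 above, where 3.85% of all tested intervals were called below and 28% above. The medians were 0.06 for the members and 1.02 for all tested intervals, so the members again stood 0.97 below the rest of the table.

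Among main intervals the widest gap was at RPS2, where H3K27ac went from 110 and 110 CPM to 66.6 and 59.5 CPM (log2 fold change -0.80 ± 0.08) while CTCF rose, a difference of -3.46 ± 0.24 in the joint fit (adjusted p = 1.75e-21). RPL28 followed at -3.002 ± 0.237, FAU at -2.48 ± 0.21, RPLP1 at -2.32 ± 0.22, RPL13A at -2.30 ± 0.35 and RPL41 at -2.18 ± 0.29. RPL13A, a host of small nucleolar RNAs, had 5.90 and 6.15 CPM of CTCF with vehicle and 25.4 and 14.7 with sorbitol, and 40.9 and 36.1 CPM of H3K27ac and then 22.03 and 18.1. RPL41 had 7.92 and 8.75 CPM of CTCF and then 18.6 and 20.1. RPL38 and RPL5 are examples of the other kind, with called rises of both: RPL38 had 53.9 and 58.0 CPM of CTCF and then 124 and 114 (1.095 ± 0.135, adjusted p = 1.56e-06), next to its H3K27ac values above. Both RPL41 and RPL13A lost the CTCF call under total-count scaling, where RPL5 changed sign (-0.44). The 4 intervals with the H3K27ac response above that of CTCF, named after their values were seen, were the main intervals of RPS20 (2.22 ± 0.45), RPS26 (1.47 ± 0.23) and RPL36A (1.02 ± 0.26), and the interval of RPL6 that also lies at the start of PTPN11 (0.80 ± 0.23). For RPS20 and RPS26 the H3K27ac change itself was -0.11 ± 0.18 and -0.09 ± 0.09 and was not called.

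**Figure D4:**
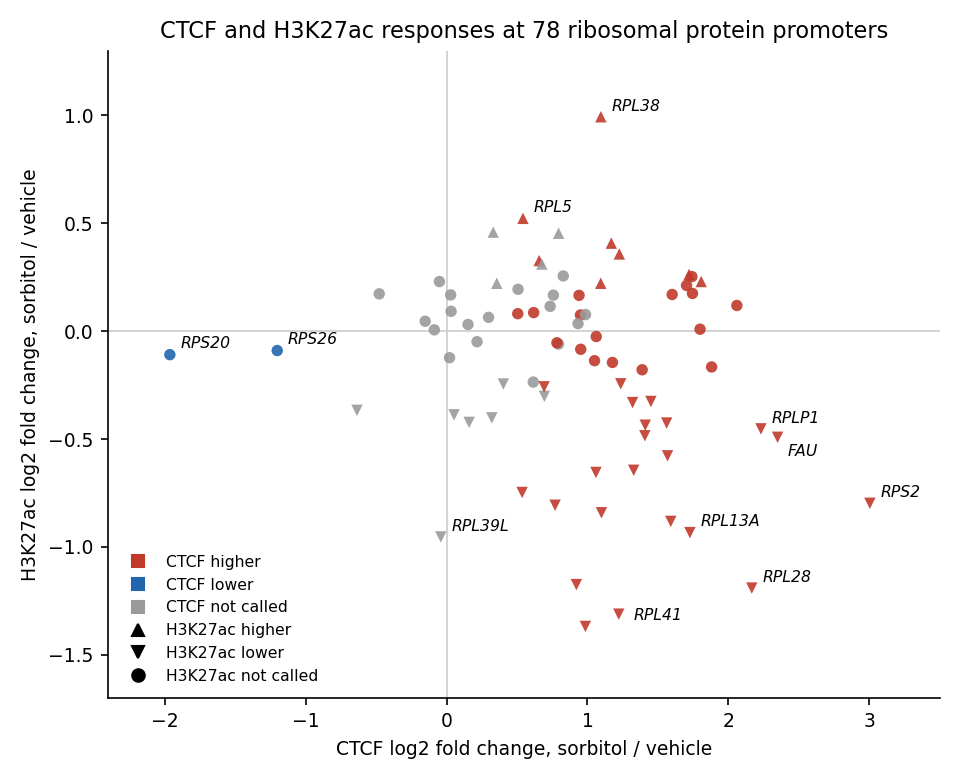
Log2 fold change of CTCF (x axis) against that of H3K27ac (y axis), sorbitol over vehicle, for the 78 main intervals tested for both. Colours give the CTCF call and symbols the H3K27ac call, and most coloured points lie to the right of 0, with 22 red points pointing down and 8 pointing up. Both axes use TMM scaling and shift as a whole under other scalings.

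Among the members named regardless of their values, the 3 stalk proteins differed. RPLP1 is described above. RPLP2 had 14.1 and 12.5 CPM of CTCF with vehicle and 19.7 and 26.0 with sorbitol (0.77 ± 0.27, adjusted p = 0.0265), and 111 and 97.9 CPM of H3K27ac and then 60.3 and 59.3 (-0.81 ± 0.08, adjusted p = 1.44e-09). Its CTCF call was lost with GC-corrected offsets (0.04), with DESeq2 (adjusted p = 0.0731), with no count filter (0.57), with a mean of at least 50 counts (0.59) and without vehicle replicate 1 (0.84), vehicle replicate 2 (0.69) or sorbitol replicate 2 (0.56). The sign turned under total-count scaling (-0.21). RPLP0, whose promoter holds a CTCF match without mismatch, had 34.8 and 31.2 CPM of CTCF and then 36.7 and 37.3 (0.16 ± 0.19, adjusted p = 0.518), while its H3K27ac fell (-0.42 ± 0.09, adjusted p = 2.77e-04). RPL3, a large subunit protein that reaches the peptidyl transferase centre, rose for CTCF from 15.1 and 13.01 to 38.3 and 45.6 CPM (1.57 ± 0.22, adjusted p = 9.67e-06) and fell for H3K27ac (-0.58 ± 0.07, adjusted p = 1.12e-07). For RPL5, CTCF went from 50.7 and 43.3 to 75.02 and 62.8 CPM (0.54 ± 0.16, adjusted p = 0.00958), a call lost without vehicle replicate 2 (0.43) or sorbitol replicate 1 (0.41) and with no count filter (0.34). Its partner RPL11 was not called for CTCF (0.36 ± 0.34), and its H3K27ac rise (0.22 ± 0.08, adjusted p = 0.0479) was lost in each fit with 1 library left out, with DESeq2 (adjusted p = 0.147) and with GC-corrected offsets (0.11). RPS3, a protein at the mRNA entry, rose for CTCF (0.95 ± 0.36, adjusted p = 0.0379), a call lost in 3 of the 4 fits with 1 library left out, with DESeq2 (adjusted p = 0.0949), with no count filter (0.75) and with the replicate block (0.93, adjusted p = 0.0618).

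RPS6, the small subunit protein phosphorylated by the S6 kinases, rose for H3K27ac from 81.4 and 80.6 to 97.7 and 103 CPM (0.31 ± 0.08, adjusted p = 0.00325), a call lost with scaling to the weakest 25% of intervals (0.058), and was not called for CTCF (0.68 ± 0.49). RPSA, also known as a laminin receptor, and RPS27A, a ubiquitin fusion, were not called for any target tested, with CTCF changes of 0.02 ± 0.36 and 0.15 ± 0.40. Of the variant forms, RPL39L, a paralog best known from testis, had 33.8 and 34.8 CPM of H3K27ac with vehicle and 18.5 and 16.9 with sorbitol (-0.95 ± 0.14, adjusted p = 2.81e-06), while its CTCF was at 40.4 and 37.1 and then 36.2 and 39.3 CPM (-0.04 ± 0.18, not called). With GC-corrected offsets (-0.51, adjusted p = 0.0331) and under total-count scaling (-1.024) RPL39L was called lower for CTCF. RPS4X, the X-linked form of RPS4, and RPS27L, a p53-inducible relative of RPS27, were not called for CTCF (0.03 ± 0.30 and 0.83 ± 0.50) or H3K27ac (0.09 ± 0.08 and 0.26 ± 0.10). RPL10L had 1.06 CPM per kb of H3K27ac and too few counts for a test of any target.

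Other gene lists with related functions put these values in context (intervals within 1000 bp of a start). For CTCF, translation factors and other genes known for pyrimidine tracts had 27 of 55 tested intervals higher and 1 lower, with a median of 0.84, next to 51 of 92 and 0.82 for the ribosomal proteins. Ribosome biogenesis factors had 14 of 46 higher and 0 lower (0.40), mitochondrial ribosomal proteins 23 of 81 higher and 9 lower (0.47), and proteasome subunits 14 of 52 higher and 2 lower (0.50), close to the 0.48 of all promoters. For RAD21 the medians of the 5 lists, in the same order with the translation factors first and the ribosomal proteins last, were 0.39, 0.18, 0.27, 0.11 and 0.58. For H3K27ac, 24 of 67 translation factor intervals fell and 11 rose (median -0.13), and of the mitochondrial ribosomal protein intervals 20 of 99 fell and 31 rose (-0.03). No list was compared with another by a test.

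**Figure D5:**
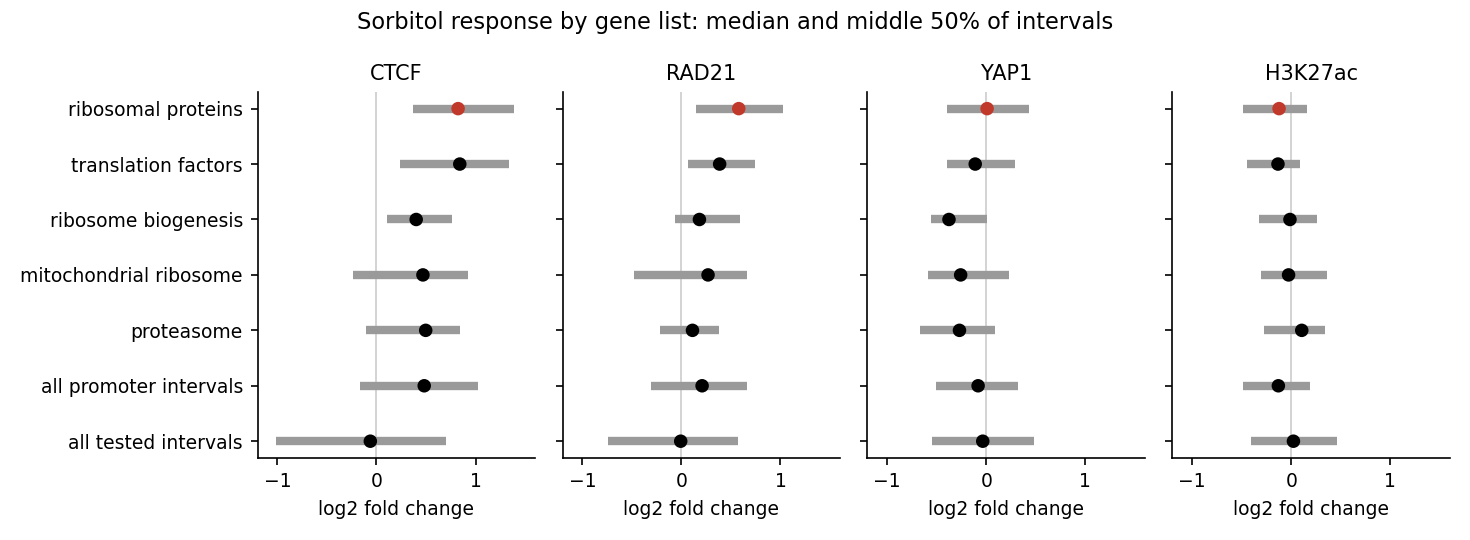
For each target, the dot is the median log2 fold change of sorbitol over vehicle and the grey bar spans the middle 50% of tested intervals of each gene list on the y axis, with the ribosomal protein intervals in red. For CTCF the ribosomal proteins (0.82) and translation factors (0.84) lie to the right of all promoter intervals (0.48), while for YAP1 ribosome biogenesis (-0.38), proteasome (-0.27) and mitochondrial ribosome (-0.26) lie to the left of the ribosomal proteins (0.01). Total-count scaling would shift all dots of a target together.

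The share of promoter counts that fell in the members does not depend on scaling between libraries, but it depends on the few dominant intervals. Over all protein-coding promoter intervals the members took 0.5% and 0.422% of CTCF counts with vehicle and 0.32% and 0.332% with sorbitol. Without dominant intervals the shares were 0.814% and 0.811% with vehicle and 0.99% and 1.03% with sorbitol, so the direction turned. Computed the second way, RAD21 shares were 0.587% and 0.605% and then 0.71% and 0.77%. YAP1 shares were 0.84% and 0.84% and then 0.836% and 0.833%, and H3K27ac shares 1.07% and 1.08% and then 1.12% and 1.11%. The CTCF, RAD21 and H3K27ac values do not overlap between vehicle and sorbitol.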

How the data were processed

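The authors deposited 1 table of read counts, with a row for each peak interval and a column for each of 16 libraries, in whole numbers that are not scaled. The submitters' processing notes name hg38 and, with no role or order, Trim Galore, FastQC, BWA 0.7.17, SAMtools, Picard, bedtools 2.31.1 and MACS2 2.2.6. How peaks were merged and whether multiply mapped reads were kept is not given in the sources used here. Ribosomal protein genes have many processed pseudogenes, so counts in exons are less certain than those upstream. All 74404 intervals lay within hg38 chromosome lengths.

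Each target was fitted on its own 4 libraries in R 4.3.3 by edgeR 4.0.16 (glmQLFit with robust estimation and the two-sided quasi-likelihood F test), TMM scaling and the filterByExpr minimum of 10 counts. Benjamini-Hochberg adjustment ran over all tested intervals and calls have an adjusted p under 0.05. The SE came from the F statistic. CPM are on TMM-scaled library sizes. Differences between targets are interaction terms over 8 libraries. Simulated counts with known changes were used to test the edgeR fit.

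Alternatives were DESeq2 1.42.0, its size factors, total-count scaling, scaling to the weakest 25% of tested intervals, no filter, a mean of at least 50 counts, the replicate block, GC-corrected offsets (lowess, span 0.3), both together, no dominant intervals (mitochondrial, unplaced, YAP1 gene, or above 0.1% of a library), starts within 500 bp, and each replicate left out. Scaling to the total without dominant intervals was added after seeing the data.

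The members, lists and tests were chosen with earlier results of these data known. Named genes are, per target, the 4 largest called rises and falls of main intervals above the median mean CPM with groups that do not overlap, the 3 highest and lowest levels, 12 genes listed whatever their values, variant forms, genes without an interval, and the 6 widest opposite calls; some genes that the rule names are not reported here. The labels give no batch. Start windows are from RefSeq (GRCh38.p14).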

Additional observations from a re-analysis of the deposited data

Results flagged for a closer look

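The response to sorbitol differed between targets by the interaction test. Differences are signed and do not rank the responses by size. The RAD21 response was below that of CTCF at 1 member, the RPL28 promoter (-1.67 ± 0.40). The H3K27ac response was above that of CTCF at 4 members and below it at 43, where 12.3% and 9.3% of all tested intervals were called. Among the 43 were both RPS2 intervals (-3.46 ± 0.24 and -3.40 ± 0.33), RPL28, FAU, RPLP1 and, at the small end, RPL26 (-0.59 ± 0.16). No explanation was tested.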

How the results depend on the processing

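Directions were relative to the scaling. Under total-count scaling 8 members were higher and 19 lower for CTCF. RAD21 then had 1 higher, YAP1 had 0 higher and 71 lower, H3K27ac had 33 higher and 31 lower, and the H3K27ac response was above that of CTCF at 25 and below at 19. Of all tested intervals, 5.37% were then higher and 53.6% lower for CTCF, and 1.59% higher for RAD21. YAP1 had 1.48% higher and 63.5% lower, and H3K27ac 14.3% and 10.4%. The H3K27ac response was above that of CTCF at 28% and below at 3.85%. Log2 fold changes that turned sign there were, for CTCF, RPL5 -0.44, RPLP0 -0.82, RPLP2 -0.21, RPS3 -0.027, RPS4X -0.95 and RPSA -0.97, and for YAP1, FAU -0.14, RPL12 -0.29, RPL13A -1.29, RPL19 -0.04, RPL28 -1.18, RPL41 -1.09, RPL5 -0.99, RPLP0 -1.24, RPLP1 -0.51 and RPS4X -1.42. Scaling to the weakest 25% gave 14 higher for RAD21, 4 higher and 61 lower for H3K27ac, 2 above and 82 below for H3K27ac against CTCF, and turned the H3K27ac changes of RPL11 (-0.032) and RPS27A (-0.22). The shares of all tested intervals were 9.42% higher for RAD21 and 3.42% higher and 25.3% lower for H3K27ac. For H3K27ac against CTCF they were 4.4% above and 21.6% below. A mean of at least 50 counts, which tests fewer intervals, gave 23 higher for CTCF, 0 for RAD21 (no member left), 3 higher and 2 lower for YAP1, 36 higher for H3K27ac, 1 RAD21 response above CTCF and 9 H3K27ac responses above CTCF. Of all intervals tested there, 27.3% were higher for CTCF and 22.1% for H3K27ac, and YAP1 had 14.4% higher and 7.36% lower. The RAD21 response was above that of CTCF at 1.58%, and the H3K27ac response at 23.3%. No filter gave 2 higher and 12 lower for YAP1, where 1.29% and 2.06% of all tested intervals were called. DESeq2 gave 1 higher for RAD21, 3 higher and 0 lower for YAP1, and 0 RAD21 responses below CTCF, as did its size factors and total-count scaling. Of all intervals with an adjusted p from DESeq2, 4.07% were higher for RAD21, and 4.8% higher and 0.799% lower for YAP1.

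GC-corrected offsets gave 6 lower for CTCF, 4 higher for RAD21, 0 lower for YAP1, 24 higher for H3K27ac and 11 H3K27ac responses above CTCF. With the replicate block as well, the values were 5, 5, 1, 25 and 11. Without the block, the shares of all tested intervals were 17.3%, 3.75%, 1.36%, 10.6% and 14.1% in the same order. With it they were 14.3%, 3.72%, 1.42%, 10.8% and 13.1%. Without dominant intervals 1 was higher for RAD21, 3 higher and 0 lower for YAP1, and 0 RAD21 responses were below CTCF, and the change in the share of promoter counts became 0.196 for CTCF, 0.144 for RAD21 and -0.00584 percentage points for YAP1, from -0.135, -0.0204 and -0.203. Total scaling without them gave 1 higher for RAD21, 2 higher and 6 lower for YAP1, 33 higher for H3K27ac and 0 RAD21 responses below CTCF. The shares of all tested intervals were 2.86% higher for RAD21, 3.48% higher and 3.45% lower for YAP1, and 14.1% higher for H3K27ac. With 1 library left out, counts ranged from 2 to 7 (RAD21 higher), 1 to 6 and 0 to 8 (YAP1 higher and lower), 0 to 1 (RAD21 above and below CTCF) and 2 to 4 (H3K27ac above CTCF), and the RAD21 share from -0.0459 to 0.00511. The cause of these shifts was not tested. In fits that leave 1 library in a group, that library is assumed to vary like the others. The CTCF count of 51 higher kept within 1.5 times in the other settings (37 to 64), and the members stood 0.52 to 1.07 above all tested intervals in each.

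No pairing of samples by replicate number was visible: correlations of same-numbered deviations were -0.008 (CTCF), -0.003 (RAD21), 0.005 (YAP1) and -0.005 (H3K27ac). Such values cannot show whether same-numbered libraries were handled together. With the replicate block, CTCF had 49 higher and 2 lower, RAD21 had 2 higher, YAP1 had 5 higher and 1 lower, and H3K27ac had 16 higher and 39 lower. There, 1 RAD21 response was below that of CTCF, and H3K27ac responses were above that of CTCF at 4 and below at 42 members. Of all tested intervals, 17.8% were then higher and 17.4% lower for CTCF, and 2.34% higher for RAD21. YAP1 had 4.71% higher and 1.12% lower, and H3K27ac 8.8% and 14.6%. The RAD21 response was below that of CTCF at 0.546% of all tested intervals. The H3K27ac response was above that of CTCF at 10.8% and below at 8.85%. The block ended the CTCF call of RPS3 (0.93). The median count of a main interval was 12 to 27 in RAD21 libraries; its part in the few RAD21 calls was not tested.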

Other observations

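Position on the genome went with the H3K27ac change, a pattern noticed after the values were seen and given without a test. Of the 12 tested main intervals on chromosome 19, which include RPL28 and RPL13A, 8 fell for H3K27ac and 0 rose, with a median of -0.40. Of the 68 elsewhere 21 fell and 14 rose, with a median of 0.02. All protein-coding promoter intervals showed the same split, with 713 of 1426 lower on chromosome 19 (median -0.57) and 4754 of 18031 lower elsewhere (median -0.11). For CTCF, 9 of 12 main intervals on chromosome 19 rose (median 1.02), as against 38 of 66 elsewhere (median 0.81), and 651 of 1162 promoter intervals there (median 0.93), as against 3836 of 13561 elsewhere (median 0.44).

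The intervals of these genes that are not nearest to the canonical start were not compared with the main ones by a test. Over 31 tested intervals the H3K27ac median was -0.43, with 32.3% lower, next to 36.2% of main and 28.1% of promoter intervals. Over 14 tested intervals the CTCF median was 0.57, with 4 higher and 0 lower, next to 30.5% higher among promoter intervals. Of the 31, a RPL12 interval with 1 and 1 CTCF counts with vehicle and 3 and 3 with sorbitol had too few for a CTCF test. In the joint fit with H3K27ac it had a difference of -3.366 ± 1.203 between the H3K27ac and CTCF responses (edgeR, adjusted p = 0.0341).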
